A study of Mus musculus with 6 samples.

Results

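Cytochrome c oxidase, complex IV of the respiratory chain, is built in part from subunits that exist in more than 1 isoform, and the 9 genes described here are the paired isoforms of subunits 4, 6a, 7a and 8. They were taken by gene symbol from a table of 21959 genes: Cox4i1 and Cox4i2, Cox6a1 and Cox6a2, Cox7a2 and Cox7a1, Cox8a and Cox8b, and Cox7a2l, a relative of the subunit 7a genes. All 9 were found, and all 9 passed the filter on low counts that left 14875 genes for testing. RNA-seq had been performed on full-thickness dorsal skin from male C57BL/6 mice of 7 weeks, shaved on the back in telogen, the resting phase of the hair cycle. In the vehicle group, 3 mice received the solvent (dipropylene glycol in water) on the shaved skin each day for 7 days. In the rebamipide group, 3 mice received 3% rebamipide, a mucosal protective drug used for gastric ulcers, in the same way for the same time. The labels name no transgene or mutant allele in either group, and each library was labelled as a separate replicate. The comparison asks which transcripts of the skin differ after rebamipide, before the onset of hair growth.

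Complex IV passes electrons from cytochrome c to oxygen and pumps protons across the inner mitochondrial membrane. Its catalytic core is encoded by mitochondrial DNA, and the nuclear-encoded subunits around it adjust activity, assembly and stability. Cox4i1, Cox6a1, Cox7a2 and Cox8a are the isoforms found in most tissues. Cox6a2 is restricted to heart and skeletal muscle, while Cox7a1 and Cox8b are found in heart, skeletal muscle and, in mice, brown fat. Cox4i2 is known from lung, from cells of vessel walls and from responses to low oxygen. Cox7a2l, also known as SCAFI, is not a second copy of subunit 7a in every complex but a factor that joins complexes III and IV in supercomplexes.

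The promoters of the subunit 7a and subunit 8 pairs are shown because the restricted member of both pairs differed between groups together, as described below. Each sequence is the 250 bases before the annotated start of the gene, 5′ to 3′ on the strand of the gene, from RefSeq for the build GRCm38.p6, in which 6 of the 9 genes had an entry. Capitals mark matches on either strand to the motifs searched. The Cox8b promoter lies at chr7:140900447-140900696 (minus strand), that of Cox8a at chr19:7217617-7217866 (minus), that of Cox7a1 at chr7:30183921-30184170 (plus) and that of Cox7a2 at chr9:79759854-79760103 (minus).
Cox8b: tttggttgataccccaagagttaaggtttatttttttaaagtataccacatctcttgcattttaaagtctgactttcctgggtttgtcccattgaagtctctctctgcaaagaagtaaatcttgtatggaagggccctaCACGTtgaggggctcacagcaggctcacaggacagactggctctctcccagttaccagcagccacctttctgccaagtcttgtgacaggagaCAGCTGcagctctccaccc
Cox8a: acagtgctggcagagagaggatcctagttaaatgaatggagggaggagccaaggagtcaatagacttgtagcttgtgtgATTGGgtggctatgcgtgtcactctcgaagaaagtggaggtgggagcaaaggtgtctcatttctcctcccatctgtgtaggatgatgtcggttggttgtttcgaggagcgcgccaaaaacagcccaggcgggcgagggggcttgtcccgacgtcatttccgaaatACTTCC
Cox7a1: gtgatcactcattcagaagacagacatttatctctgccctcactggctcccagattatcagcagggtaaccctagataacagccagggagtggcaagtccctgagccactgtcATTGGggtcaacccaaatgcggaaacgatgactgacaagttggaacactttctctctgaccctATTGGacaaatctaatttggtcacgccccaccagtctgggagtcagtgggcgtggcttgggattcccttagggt
Cox7a2: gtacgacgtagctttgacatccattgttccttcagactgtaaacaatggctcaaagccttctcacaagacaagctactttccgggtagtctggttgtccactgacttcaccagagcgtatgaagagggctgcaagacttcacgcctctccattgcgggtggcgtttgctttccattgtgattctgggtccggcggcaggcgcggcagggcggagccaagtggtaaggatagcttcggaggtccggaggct

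Among the 6 promoters, which include 2 of the 4 restricted isoforms, Cox8b held 1 CpG dinucleotide in the 250 bases and Cox7a1 held 4, while Cox8a held 11, Cox7a2 14, Cox7a2l 13 and Cox6a1 26, against a median of 6 over all 32851 promoters of the table. A count as low as that of Cox7a1 was common, with 4 or fewer in 44.4% of all promoters. Motifs were searched on both strands in the window from 250 bases before to 50 bases after the start. In Cox8b the search found CAGCTG, an E-box of the kind bound by myogenic factors, at positions -19 and 17 from the start, TATAAA at position 5, and ACGTG, the core of the hypoxia response element, at -111 and 43. In Cox7a1 it found CCAAT at -137 and -74 and ACGTG at 10. Cox8a held CCAAT at -171 and CCGGAAGT, an ETS site, at -6 and 32. The first of these crosses the start, so that only 6 of its bases stand in capitals at the end of the sequence. Cox6a1 held CCAAT at -74 and GCATGCGC, the core of the NRF1 site, at -162 and -160 as an overlapping pair on opposite strands. No match was found in Cox7a2 or Cox7a2l, and neither the nuclear receptor half-site AGGTCA nor its longer form AAGGTCA, which contains it, nor the MEF2 box was found in any of the 6 windows. Among all promoters, 16.3% held CAGCTG, 13.6% TATAAA, 19.6% ACGTG, 37.4% CCAAT, 3.89% CCGGAAGT, 2.71% GCATGCGC, 16.3% AGGTCA, 4.72% AAGGTCA and 3.69% the MEF2 box, so that matches such as CCAAT are common by letters alone.

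The libraries differed in ways that bear on every isoform gene. Total counts were 38676018 to 39915276 in the vehicle group and 32709801 to 34706852 in the rebamipide group, and transcripts encoded by mitochondrial DNA took 2.59 to 5.36% and 13.28 to 21.96% of them. The labelled tissue was checked against Krt14 and Krt5, the keratins of the basal epidermis. Krt14 had 26099, 64371 and 59493 counts in vehicle replicates 1 to 3 and 10954, 6102 and 0 in rebamipide replicates 1 to 3, and Krt5 had 4 counts in rebamipide replicate 3 against 5368 or more elsewhere. Rebamipide replicate 3 therefore stood apart, with 3 of 7 keratinocyte markers at 0, and the fitted differences, isoform ratios and list counts are given with and without it. Ucp1, which defines thermogenic fat cells, had 0 counts in every vehicle library and 81048, 220449 and 150572 in the rebamipide libraries. The skeletal muscle content also varied: Acta1, the actin of skeletal muscle fibres, had 77857, 355813 and 331785 counts in the vehicle libraries and 329722, 57583 and 2121 in the rebamipide libraries. In bulk tissue, fewer cells of a type and less RNA per cell cannot be told apart, and the part of tissue content in the isoform results was not tested.

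Of the 9 isoform genes, 7 were higher in the rebamipide group at an adjusted p under 0.05 (edgeR quasi-likelihood test, Benjamini-Hochberg adjustment over all genes tested), against 14.1% of all genes tested. In edgeR 0 were lower, against 6.51% of all genes, and 0 were lower at an unadjusted p under 0.05. DESeq2 and limma-voom called the same 7 higher and 0 lower, where they called 18.3% and 14.4% of all genes higher and 17.0% and 6.94% lower. In 8 of the 9, every rebamipide library lay above every vehicle library in normalized CPM (counts scaled to library size times its TMM factor). That pattern was found in 24.5% of all genes, and in 0 of the 9 did every one lie below (24.0% of all genes). The TMM factors, 1.21 to 1.28 under vehicle and 0.746 to 0.929 under rebamipide, widen this contrast. Cox4i2 was among the 8, but its FPKM, scaled by total counts, overlapped between groups (2.756 to 4.642 under vehicle, 3.174 to 4.644 under rebamipide). The median log2 fold change was 2.60 over the isoform genes and -0.175 over all genes tested. With total counts alone in place of TMM the differences were 3.53 for Cox8b, 3.20 for Cox7a1, 2.59 for Cox6a1, 2.02 for Cox8a, 1.96 for Cox4i1 and 1.56 for Cox7a2, all still called (edgeR), so that the fold sizes below are over 1.5 times smaller on that scale. The median of all genes then lay at -0.778, and against it these 6 differed by 2.34 to 4.31, beside 2.38 to 4.33 with TMM. The rises were largest for the restricted isoforms Cox8b and Cox7a1, and neither Cox6a2 nor Cox4i2 passed the test. Without rebamipide replicate 3, 6 of the 9 were higher in edgeR (6.6% of all genes) and 7 in DESeq2 (13.3%), and 0 were lower (2.49% and 12.2%). Without vehicle replicate 2, or without rebamipide replicate 2, 0 of the 9 passed in edgeR, where 0 and 1 of all genes did, with 4116 and 4062 genes at an unadjusted p under 0.05. In both cases the same 7 members as in the full comparison had unadjusted p-values under 0.05 in edgeR and passed in DESeq2, which called 2097 and 2684 of all genes higher.

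**Figure D1:**
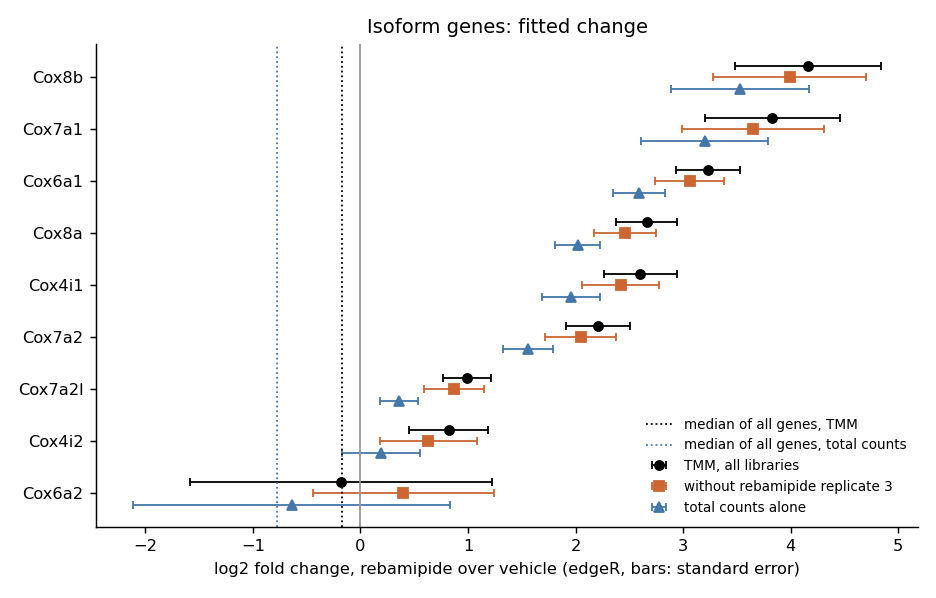
Fitted log2 fold change of each isoform gene (x axis, rebamipide over vehicle) in edgeR with TMM normalization, without rebamipide replicate 3, and with total counts alone; bars are standard errors and dotted lines the medians of all genes. Cox8b lies highest at 4.16 with TMM and Cox6a2, at -0.18, has the widest bar.

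Cox8b, the muscle and brown fat isoform of the small membrane subunit 8, showed the largest rise of the 9 genes. The gene (ENSMUSG00000025488) lies at chr7:140478858-140480359 on the minus strand in the table, whose build per the submitters' notes is GRCm39. Normalized CPM were 6.23, 27.1 and 35.3 in the vehicle libraries and 317, 406 and 501 in the rebamipide libraries. All rebamipide values were above all vehicle values, and vehicle replicate 1 was the lowest of the 6. The fitted difference was 4.16 ± 0.68 on the log2 scale (SE, adjusted p = 0.0139, edgeR), a 17.8-fold rise that ranked 97 among the 14875 genes. Without rebamipide replicate 3 it was 3.99 (adjusted p = 0.0314, edgeR).

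Cox8a, the ubiquitous isoform of subunit 8, rose as well but by less. The gene (ENSMUSG00000035885, chr19:7192518-7194981, minus strand) had 69.4, 66.9 and 76.2 normalized CPM in the vehicle libraries and 324, 450 and 573 in the rebamipide libraries. The vehicle libraries were close to each other, with an SD of 4.85 around a mean of 70.8, and the groups did not overlap. The fitted log2 difference was 2.66 ± 0.28 (SE, adjusted p = 0.00939, edgeR), or 2.46 without rebamipide replicate 3 (adjusted p = 0.0212, edgeR).

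Per length, the order of the subunit 8 isoforms turned over. FPKM, which divides counts by gene length and by the total of the library, was 22.1, 93.0 and 118.7 for Cox8b in the vehicle libraries, below Cox8a at 143.2, 133.3 and 149.0 in the same libraries. In the rebamipide libraries Cox8b had 818.1, 842.3 and 1051 FPKM and Cox8a had 486.4, 542.4 and 698.8. Per length, Cox8a was thus the more abundant isoform in 3 of 3 vehicle libraries and Cox8b in 3 of 3 rebamipide libraries. In read counts the order did not turn. Cox8b had 9634, 10425 and 13126 counts in the rebamipide libraries and Cox8a had 9849, 11543 and 15012. The turnover therefore rests on the annotated lengths of 360 bases for Cox8b and 619 for Cox8a. Cox8b made up 13.4, 41.1 and 44.4% of the FPKM of the pair under vehicle and 62.7, 60.8 and 60.1% under rebamipide. The log2 ratio of Cox8b to Cox8a differed by 1.84 between groups, a 3.57-fold shift, with a vehicle SD of 1.31 and a rebamipide SD of 0.08. The groups did not overlap, and an exact 2-sided permutation gave p = 0.1, which 3 against 3 libraries cannot go below, or 0.125 adjusted over the 5 isoform ratios examined. The difference was 1.87 without rebamipide replicate 3 and 1.08 without vehicle replicate 1, which was the vehicle library with the lowest sum of fast muscle markers.

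Cox7a1, the heart, muscle and brown fat isoform of subunit 7a, followed Cox8b closely. The gene (ENSMUSG00000074218, chr7:29883569-29885503, plus strand) had 5.99, 22.1 and 30.0 normalized CPM in the vehicle libraries and 204, 280 and 340 in the rebamipide libraries. Vehicle replicate 1 was again lowest, and the lowest rebamipide value was well above the highest vehicle value. The log2 difference was 3.83 ± 0.63 (SE, adjusted p = 0.0141, edgeR), 14.2-fold, and 3.65 without rebamipide replicate 3 (adjusted p = 0.0317, edgeR).

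Cox7a2, the ubiquitous isoform of subunit 7a, rose by less than Cox7a1. It (ENSMUSG00000032330, chr9:79662643-79667160, minus strand) had 79.6, 93.6 and 108 normalized CPM under vehicle and 295, 474 and 529 under rebamipide. The groups did not overlap, and the log2 difference was 2.21 ± 0.30 (SE, adjusted p = 0.0101, edgeR), 4.62-fold, or 2.05 without rebamipide replicate 3 (adjusted p = 0.0269, edgeR).

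Per length, the balance within subunit 7a moved from mainly Cox7a2 to near parity. In normalized CPM, which ignore length, Cox7a1 stayed below Cox7a2 in each rebamipide library (204, 280 and 340 against 295, 474 and 529). In FPKM, Cox7a1 had 14.3, 50.95 and 67.81 in the vehicle libraries beside 107.7, 122.3 and 138.2 for Cox7a2. In the rebamipide libraries Cox7a1 had 354.1, 390.8 and 480.2 beside 290.6, 375 and 423.2. Cox7a1 therefore made up 11.7, 29.4 and 32.9% of the pair under vehicle and 54.9, 51.0 and 53.2% under rebamipide, without overlap. The log2 ratio differed by 1.91 between groups, a 3.76-fold shift, and by 1.91 without rebamipide replicate 3 and 1.32 without vehicle replicate 1. The 2-sided exact permutation test gave p = 0.1 (0.125 adjusted over 5 ratios).

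Cox7a2l, the supercomplex factor, showed the smallest rise of the genes that passed the test. The gene (ENSMUSG00000024248, chr17:83809347-83824759, minus strand) had 125, 158 and 149 normalized CPM under vehicle and 232, 290 and 335 under rebamipide, without overlap. The log2 difference was 0.99 ± 0.22 (SE, adjusted p = 0.0307, edgeR), 1.98-fold. The call was lost in edgeR without rebamipide replicate 3 (0.87, adjusted p = 0.101), and leaving out any other library but rebamipide replicate 1 also lost it (adjusted p = 0.0566 to 0.122). With total counts alone in place of TMM the difference was 0.36 (adjusted p = 0.153, edgeR). In DESeq2 it passed in each of these omissions. Against the median of all genes the difference was 1.16 with TMM and 1.13 with total counts, since that median lay at -0.175 and -0.778. Relative to Cox7a2, its FPKM ratio went from 1.01, 1.08 and 0.88 in the vehicle libraries to 0.502, 0.39 and 0.404 in the rebamipide libraries. Both genes were thus at like levels per length under vehicle, and Cox7a2l was below Cox7a2 in each rebamipide library. The log2 ratio differed by -1.20 between groups, without overlap (2-sided exact permutation p = 0.1, 0.125 adjusted), and by -1.15 without rebamipide replicate 3.

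**Figure D2:**
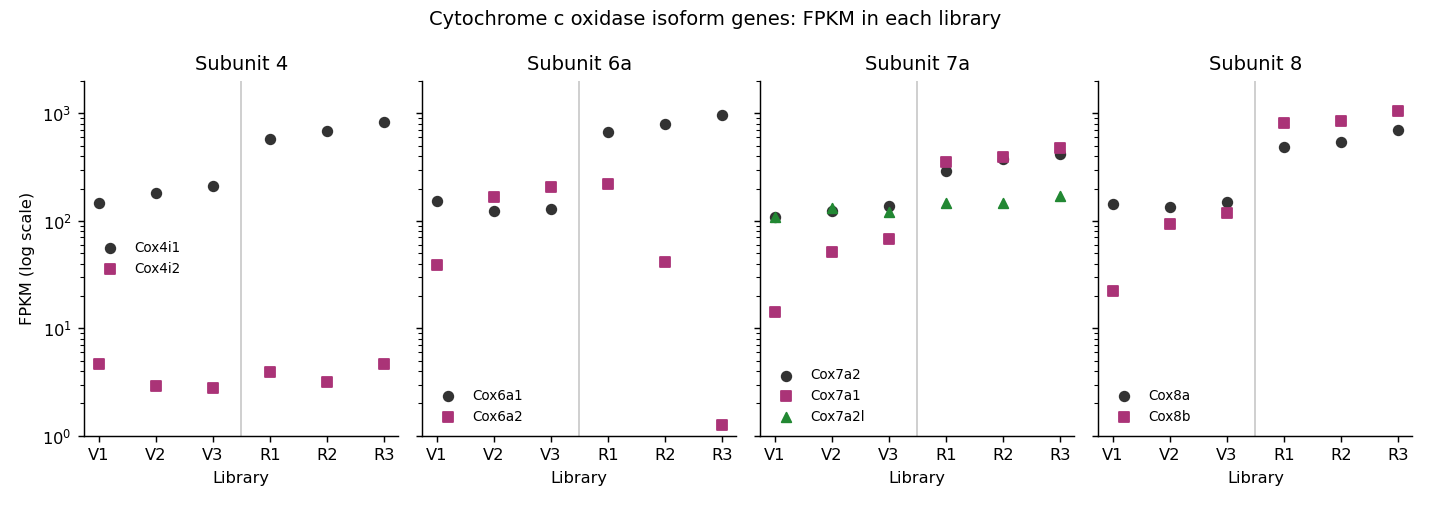
FPKM (log scale) of the isoform genes in each library, 1 panel per subunit; V1 to V3 are vehicle and R1 to R3 rebamipide replicates, and each point is 1 library. Cox8b lies below Cox8a in the vehicle libraries and above it in the rebamipide libraries, while Cox6a2 spans 1.27 to 221.2 within the rebamipide group.

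Subunit 6a did not follow subunits 7a and 8. Its restricted isoform varied widely within both groups, whereas Cox7a1 and Cox8b varied to a like degree only within the vehicle group. Cox6a2, the heart and skeletal muscle isoform (ENSMUSG00000030785, chr7:127804607-127805559, minus strand), had 20.7, 91.1 and 116 normalized CPM under vehicle and 162, 37.4 and 1.14 under rebamipide. The highest and the lowest of the 6 values both belonged to the rebamipide group, and the groups overlapped. The log2 difference was -0.18 ± 1.40 (SE, adjusted p = 0.933, edgeR), and 0.40 without rebamipide replicate 3 (adjusted p = 0.778, edgeR). Its size depended on the method, at -1.57 in limma-voom (adjusted p = 0.496) and -2.0 in limma on log2(FPKM + 1) (adjusted p = 0.341). Without rebamipide replicate 1 it was -1.97 (adjusted p = 0.34, edgeR). The sign was reversed in 7 alternatives. The gene lies within the span of Itgad on the other strand, which had at most 2 counts in any library.

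Cox6a1, the ubiquitous isoform of subunit 6a, had the largest rise among the ubiquitous isoforms. It (ENSMUSG00000041697, chr5:115483701-115487040, minus strand) had 84.5, 69.8 and 74.5 normalized CPM under vehicle and 510, 752 and 892 under rebamipide, without overlap. The log2 difference was 3.23 ± 0.30 (SE, adjusted p = 0.00939, edgeR), 9.41-fold, or 3.06 without rebamipide replicate 3 (adjusted p = 0.0206, edgeR). In FPKM, the ratio of Cox6a2 to Cox6a1 was 0.253, 1.35 and 1.6 in the vehicle libraries and 0.328, 0.0514 and 0.00135 in the rebamipide libraries. Cox6a2 was the more abundant isoform in vehicle replicates 2 and 3 only. It made up 20.2, 57.4 and 61.5% of the pair under vehicle and 24.7, 4.89 and 0.132% under rebamipide, so rebamipide replicate 1 lay above vehicle replicate 1. The log2 ratio differed by -4.85 between groups (2-sided exact permutation p = 0.2, also after adjustment over 5 ratios) and by -2.65 without rebamipide replicate 3, but by -6.62 without rebamipide replicate 1 and -5.70 without vehicle replicate 1.

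Subunit 4 was almost wholly of the ubiquitous isoform in every library. Cox4i1 (ENSMUSG00000031818, chr8:121394961-121400946, plus strand) had 178, 227 and 272 normalized CPM under vehicle and 965, 1430 and 1700 under rebamipide. The groups did not overlap, and the log2 difference was 2.60 ± 0.34 (SE, adjusted p = 0.00993, edgeR), 6.05-fold, or 2.42 without rebamipide replicate 3 (adjusted p = 0.0244, edgeR). The gene shares 352 bases with Emc8 on the other strand, which had 1379 to 1857 counts against 8871 to 44452 for Cox4i1.

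Cox4i2, the isoform of lung and vessel walls, stayed at low levels. It (ENSMUSG00000009876, chr2:152596093-152606957, plus strand) had 2.86, 1.85 and 1.80 normalized CPM under vehicle and 3.33, 3.35 and 4.85 under rebamipide, from 84 to 143 counts in a library. These values did not overlap, but FPKM, scaled by total counts, did, at 4.642, 2.893 and 2.756 under vehicle and 3.918, 3.174 and 4.644 under rebamipide. The log2 difference was 0.82 ± 0.37 (SE, adjusted p = 0.148, edgeR), 0.63 without rebamipide replicate 3 (adjusted p = 0.382, edgeR) and 0.19 with total counts alone (adjusted p = 0.68, edgeR). Cox4i2 made up 3.07, 1.58 and 1.28% of the FPKM of the pair under vehicle and 0.673, 0.459 and 0.559% under rebamipide. The share was lower in each rebamipide library, and the log2 ratio differed by -1.74 (2-sided exact permutation p = 0.1, 0.125 adjusted) or by -1.75 without rebamipide replicate 3. The 9 pericyte and smooth muscle markers, cells in which Cox4i2 is known, summed to 460, 551 and 700 normalized CPM under vehicle and to 823, 1090 and 1260 under rebamipide, with 2 of 9 higher (edgeR, against 14.1% of all genes) and 0 without rebamipide replicate 3 (4 of 9 and 2 of 9 in DESeq2, against 18.3% and 13.3%). A count of 2 in 9 is near the share of all genes.

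**Figure D3:**
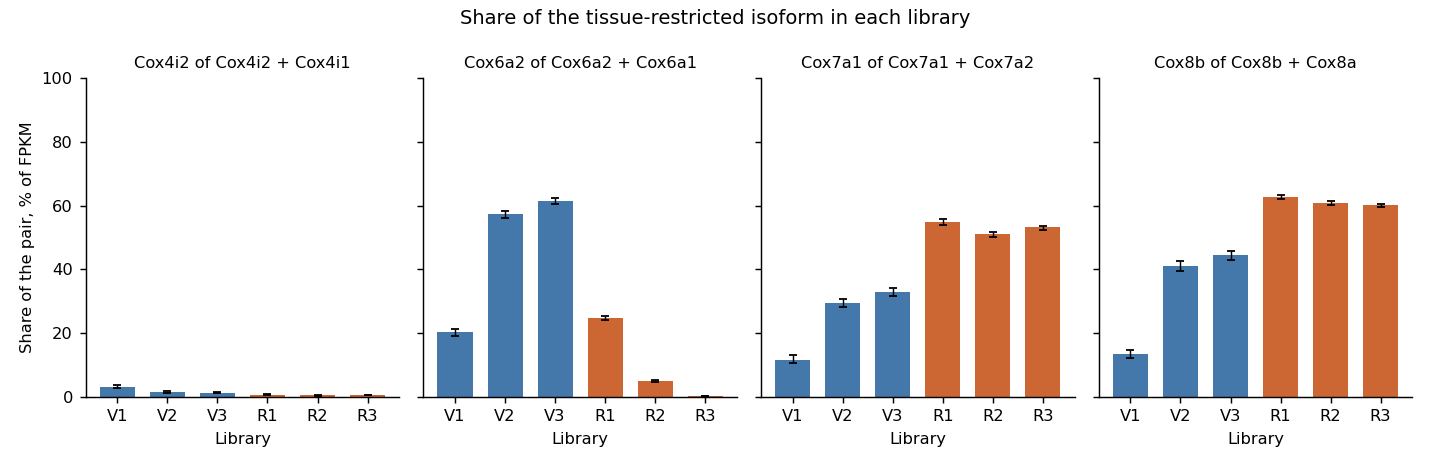
Share of the restricted isoform in the summed FPKM of its pair (y axis, percent) in each library; V1 to V3 are vehicle and R1 to R3 rebamipide replicates, and bars carry 95% Wilson intervals, which cover counting error only. Cox7a1 and Cox8b shares are above 50% in each rebamipide library and below 45% in each vehicle library, whereas Cox6a2 overlaps between groups.

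The counting intervals behind these shares were narrow, at most 3.1 percentage points wide, and the spread between vehicle libraries of Cox6a2, Cox7a1 and Cox8b was wider than that. The total of each pair also rose. Cox8a and Cox8b together had 165 to 268 FPKM under vehicle and 1300 to 1750 under rebamipide, and Cox7a2 and Cox7a1 together had 122 to 206 and 645 to 903. Cox6a1 and Cox6a2 together had 193 to 334 FPKM under vehicle and 840 to 961 under rebamipide, and Cox4i1 and Cox4i2 had 151 to 215 and 582 to 831. None of the 4 sums overlapped between groups.

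The restricted isoforms were next set beside the muscle and fat markers of the same libraries, as a description. Cox6a2 kept a nearly fixed ratio to skeletal muscle actin in all 6 libraries: its FPKM divided by that of Acta1 was 0.0299, 0.0285 and 0.0368 under vehicle and 0.0337, 0.0377 and 0.0319 under rebamipide. The highest ratio was 1.32 times the lowest, although Cox6a2 itself ranged from 1.271 to 221.2 FPKM. Cox8b kept a fixed ratio to Cox6a2 only in the vehicle group, at 0.569, 0.563 and 0.578. In the rebamipide libraries that ratio was 3.70, 20.5 and 826. Cox7a1 behaved alike, with 0.368, 0.308 and 0.330 times the FPKM of Cox6a2 under vehicle and 1.60, 9.52 and 378 times under rebamipide. Cox8b and Cox7a1 stayed near each other throughout, with a ratio of 1.55 to 1.83 under vehicle and 2.16 to 2.31 under rebamipide. In rebamipide replicate 3, where the 9 fast muscle markers summed to 300 normalized CPM against 5850 to 30300 under vehicle, Cox8b and Cox7a1 were at their highest of the 6 libraries.

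**Figure D4:**
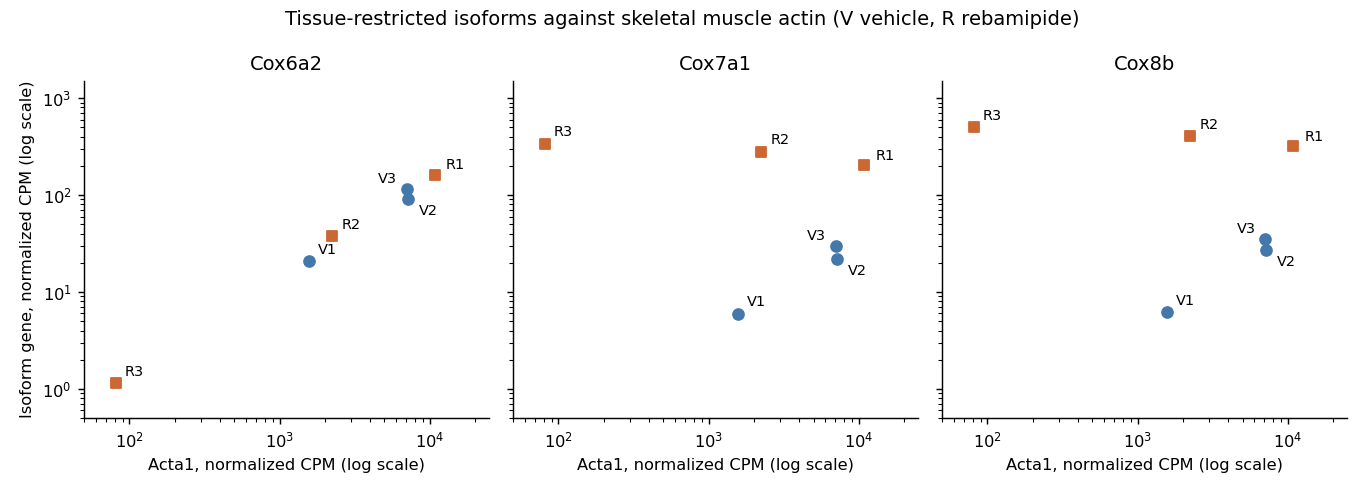
Normalized CPM of Cox6a2, Cox7a1 and Cox8b (y axis, log scale) against that of Acta1 (x axis, log scale), 1 point per library; V marks vehicle and R rebamipide replicates. Cox6a2 runs along Acta1 in all 6 libraries, whereas Cox7a1 and Cox8b do so in the vehicle libraries and lie above 200 CPM in each rebamipide library whatever the Acta1 level.

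Marker lists of fat and of the other cell types were summed in the same libraries, and their counts stand beside 14.1% of all genes higher and 6.51% lower in edgeR (18.3% and 17.0% in DESeq2). Without rebamipide replicate 3 those shares were 6.6% and 2.49% in edgeR and 13.3% and 12.2% in DESeq2. The 8 brown adipocyte markers summed to 213, 193 and 346 normalized CPM under vehicle and to 4560, 12300 and 9930 under rebamipide, and 5 of the 8 were higher (edgeR), or 4 without rebamipide replicate 3 and 4 in limma-voom. Ucp1 and Cidea made up most of the rebamipide sums, Zic1 had a log2 difference of 0.09 (0.21 without rebamipide replicate 3), and Elovl3 was lower in each rebamipide library (-1.45, adjusted p = 0.0575, edgeR, and -1.12 with 0.0948 without that library), the 1 marker of the list that DESeq2 called lower. The 8 general adipocyte markers summed to 1650, 2570 and 3790 under vehicle and to 11600, 21700 and 25000 under rebamipide, with 7 of 8 higher, or 5 without rebamipide replicate 3 (edgeR; 8 of 8 in DESeq2 in both cases). Of the 9 fast muscle markers, 0 were called in either direction, also at an unadjusted p under 0.05 and in DESeq2 and limma-voom, nor in edgeR and DESeq2 without rebamipide replicate 3. The 6 slow muscle markers summed to 7.75, 13.5 and 2.07 under vehicle and to 290, 129 and 7.02 under rebamipide. Of these, 4 were higher in edgeR, with and without rebamipide replicate 3, 5 in DESeq2 (6 without that library) and 0 in limma-voom, where 1 had an unadjusted p under 0.05. Myh7, the slow myosin heavy chain, had 2, 6 and 4 counts under vehicle and 2120, 947 and 37 under rebamipide. Cox7a1 and Cox8b were higher in all 3 rebamipide libraries, including replicate 3, in which the fast muscle sum was below all vehicle values. In that replicate the slow muscle sum was within the vehicle range, while 4 of the 6 slow markers (Myh7, Tnnc1, Myl2 and Myl3, at 1.41, 1.03, 1.14 and 1.83 normalized CPM) lay above every vehicle library. The 7 keratinocyte markers summed to 5060, 8320 and 7690 normalized CPM under vehicle and to 2220, 1270 and 3.36 under rebamipide, and 0 of 7 passed in edgeR, with 1 lower at an unadjusted p under 0.05 and 1 lower in DESeq2. Without rebamipide replicate 3, 2 of the 7 were lower in edgeR and 5 in DESeq2. The 6 fibroblast markers summed to 12000 to 17700 under vehicle and 1850 to 15100 under rebamipide with 0 called in edgeR (2 lower at an unadjusted p under 0.05 and in DESeq2, and 0 in both without rebamipide replicate 3). Of the remaining lists, 3 of 6 endothelial markers were higher in edgeR (sums of 209 to 497 under vehicle and 1010 to 1460 under rebamipide). Of the blood markers 3 of 5 were higher (42.4 to 200 and 345 to 809). With all libraries DESeq2 called 6 of 6 and 5 of 5 higher. The numbers in limma-voom were 5 of 6 and 5 of 5, against 14.4% of all genes. Without rebamipide replicate 3, edgeR called 2 and 0 higher and DESeq2 5 and 4.

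Ranked by mean FPKM, the order of the 9 genes differed between groups. In vehicle skin it ran from Cox4i1 (179.7 ± 32.8, SD, n = 3) over Cox8a (141.8 ± 7.93), Cox6a2 (136.5 ± 87.0), Cox6a1 (134.9 ± 16.5), Cox7a2 (122.7 ± 15.2), Cox7a2l (120.6 ± 11.8), Cox8b (77.96 ± 50) and Cox7a1 (44.35 ± 27.4) to Cox4i2 (3.431 ± 1.05). Neighbours in that order overlapped, except that Cox4i2 lay below Cox7a1 in all libraries. In rebamipide skin Cox8b stood first (903.7 ± 128), followed by Cox6a1 (811.1 ± 143), Cox4i1 (697.6 ± 124), Cox8a (575.9 ± 110), Cox7a1 (408.4 ± 64.8), Cox7a2 (362.9 ± 67.1), Cox7a2l (154.4 ± 14.3), Cox6a2 (87.84 ± 117) and Cox4i2 (3.912 ± 0.735). There the libraries did not overlap between Cox8a and Cox7a1 or between Cox7a2 and Cox7a2l, and the other neighbours overlapped. In FPKM, Cox8b and Cox7a1, the restricted isoforms known from brown fat, thus stood above their ubiquitous partner in 3 of 3 rebamipide libraries and in 0 of 3 vehicle libraries. In normalized CPM, without length correction, both stood below that partner in each rebamipide library. The order by FPKM therefore depends on the annotated gene lengths.

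The genes most alike to each restricted isoform were found by Pearson correlation of log2 CPM over the 6 libraries, which share treatment group, depth and tissue content and include rebamipide replicate 3. No value is given without that library, since 5 would be left. Cox7a1 was nearest to Cox8b (r = 0.9997), then to St3gal3, a sialyltransferase, and Sord, sorbitol dehydrogenase (0.9992 each). After Cox7a1, Cox8b was nearest to Mlxipl (0.9989), which encodes the carbohydrate response factor ChREBP, and to Fgfrl1 (0.9985). Cox6a2 was nearest to 3 genes of muscle fibres at 0.9997 each: Scn4a, the sodium channel of skeletal muscle, Ryr1, its calcium release channel, and Mypn, a sarcomere protein. Cox4i2 was nearest to Ring1 (0.9977), Rnaseh2c (0.9951) and Edem2 (0.9935), which had log2 differences of 0.40 to 0.54 that did not pass the test (adjusted p = 0.138 to 0.165, edgeR), or 0.31 to 0.40 without rebamipide replicate 3.

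The remaining complex IV genes were examined as lists for context. Of 14 other subunit genes, 12 were tested, 10 were higher and 0 lower (edgeR; 0 lower also at an unadjusted p under 0.05 and in DESeq2), with a median log2 difference of 2.5 against 2.60 for the 9 isoform genes, or 2.36 against 2.42 without rebamipide replicate 3. In edgeR 14.1% of all genes were higher and 6.51% lower. Cox5b, a nuclear-encoded subunit, had the smallest p-value (2.54, adjusted p = 0.00939, edgeR, and 2.42 with 0.0219 without rebamipide replicate 3), and the 7 nuclear subunits that passed lay between 2.15 and 2.86 (2.03 to 2.74 without that library). Of the mitochondrially encoded core, mt-Co1 had the highest level, at 12400, 21000 and 26500 normalized CPM under vehicle and 93100, 154000 and 181000 under rebamipide (log2 difference 2.84 ± 0.72 SE, adjusted p = 0.0403, edgeR), but did not pass without rebamipide replicate 3 in edgeR (2.64, adjusted p = 0.0568; it passed in DESeq2). The core subunits mt-Co2 (4.42, adjusted p = 0.0199, edgeR) and mt-Co3 (3.98, adjusted p = 0.00939, edgeR) had larger fitted differences, and that of mt-Co2, 21.3-fold, was above the 4.16 of Cox8b. Without rebamipide replicate 3 they were 4.39 and 3.95 (adjusted p = 0.0384 and 0.0219, edgeR). Both genes were counted at far lower levels than mt-Co1. Normalized CPM of mt-Co2 were 12.9, 22.8 and 49.0 under vehicle and 174, 1000 and 631 under rebamipide. Those of mt-Co3 were 45.4, 83.0 and 83.9 under vehicle and 676, 1490 and 1190 under rebamipide. The reason for this gap to mt-Co1 was not tested, and the fold sizes rest on these low counted levels. Ndufa4l2, a relative of the subunit Ndufa4 known from responses to low oxygen, had the lowest log2 difference, -1.24 (adjusted p = 0.179, edgeR), with overlapping groups, and -0.95 without rebamipide replicate 3 (adjusted p = 0.352, edgeR). Cox8c and Cox7b2, the isoforms known from testis, had almost no counts and were not tested. Cox6b2, likewise a testis isoform, did not pass (0.82, adjusted p = 0.225, edgeR, and 0.74 with 0.406 without rebamipide replicate 3).

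Of 27 assembly genes, 25 were tested, 19 were higher and 0 lower (edgeR; likewise 0 lower unadjusted and in DESeq2), against 14.1% and 6.51% of all genes in edgeR and 18.3% and 17.0% in DESeq2, with a median log2 difference of 1.47, or 1.37 without rebamipide replicate 3. Coa5 had the highest level in this list, with 111, 121 and 131 normalized CPM under vehicle and 406, 733 and 746 under rebamipide (2.38 ± 0.31 SE, adjusted p = 0.00993, edgeR). Cox10, which makes the haem A precursor for the enzyme, had the smallest p-value (1.98, adjusted p = 0.00939, edgeR), and Coa4 the lowest difference (0.23, adjusted p = 0.512, edgeR). Without rebamipide replicate 3 these differences were 2.24, 1.95 and 0.23 (adjusted p = 0.0254, 0.0235 and 0.695, edgeR). In that comparison 9 assembly genes were higher in edgeR and 19 in DESeq2, and 9 and 10 of the other subunits were, where 6.6% and 13.3% of all genes were. In edgeR without vehicle replicate 2, or without rebamipide replicate 2, 0 genes of either list passed. The 6 isoform genes from Cox7a2 (2.21) to Cox8b (4.16) lay within or above the range of the nuclear subunits that passed, and Cox7a2l (0.99) lay below that range.

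**Figure D5:**
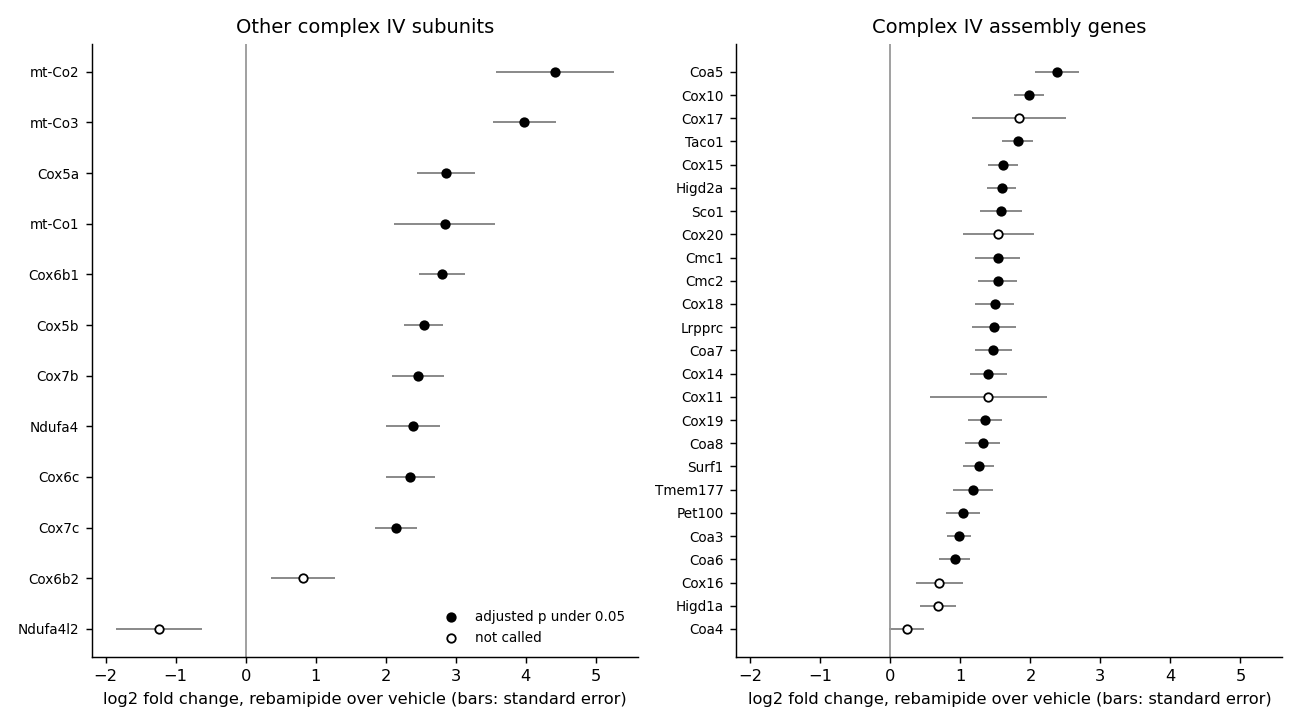
Log2 fold change (x axis, rebamipide over vehicle, edgeR) of the other complex IV subunits and of the assembly genes tested; bars are standard errors, filled points passed an adjusted p under 0.05. Of the subunits 10 of 12 and of the assembly genes 19 of 25 are filled, all to the right of 0.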

How the data were processed

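Poly-A selected RNA of the whole thickness of dorsal skin was sequenced for 3 vehicle and 3 rebamipide mice. Per the labels, the submitters' processing notes name fastp 0.22.0, HISAT2 2.1.0, HTSeq 0.9.1 and the build GRCm39, and whether counting used strand is not given in the sources used here. The authors deposited raw read counts per gene, whole numbers without normalization, and FPKM. The FPKM deposited by the authors equalled the count per base of gene length and per count summed over the library, within a relative difference of 1e-06. Annotation columns of the table were not tested. Every value column carried the name of 1 sample, and every row named a gene.

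The main comparison of counts used the quasi-likelihood test of edgeR 4.0.16 in R 4.3.3. Low genes were removed by filterByExpr, libraries were scaled by TMM, and p-values were adjusted by Benjamini and Hochberg's method over 14875 genes (threshold 0.05). The edgeR test prints no standard error. The SE given with its values was derived as the absolute log2 difference over the square root of the F statistic. TMM factors were 1.21 to 1.28 in the vehicle and 0.746 to 0.929 in the rebamipide libraries. Isoform ratios were log2 of length-corrected counts with 0.5 counts added, taken within a library and tested with a 2-sided exact permutation test over libraries. Shares carry 95% Wilson intervals, which cover counting error only. Replicates within a group differed by far more than sampling noise (79.1 to 713.6 as chi-square over its degrees of freedom). The methods of the study give 3 mice per group, and the labels add only a replicate number, so p-values measure the spread between these samples. Promoters were read from a GRCm38.p6 table and table positions are GRCm39, and the builds were not mixed.

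The isoform genes, the gene lists and the tests were chosen with earlier results of these data known. Named genes are the 9 members, up to 3 per complex IV list (smallest p-value, highest CPM, lowest log2 difference), the 3 genes most correlated with each restricted isoform, and 5 tissue markers. Itgad, Emc8, mt-Co2, mt-Co3, Cox6b2, Cox7b2, Cox8c, Cidea, Elovl3, Zic1, Tnnc1, Myl2 and Myl3 were named after their values were seen. Alternatives were DESeq2 1.42.0, limma-voom (limma 3.58.1), RLE and upper quartile normalization, total counts alone, no filter, at least 10 counts in every library, a replicate block, a fast or slow muscle marker score as covariate, limma on log2(FPKM + 1) and log2(FPKM + 0.1), other pseudocounts, and each library left out in turn. Scripts were tested on simulated data.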

Additional observations from a re-analysis of the deposited data

How the results depend on the processing

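The count of isoform genes called higher was 6 to 8 in every alternative other than leaving out vehicle replicate 2 or rebamipide replicate 2 in edgeR, and leaving out 1 library at a time gave 0 to 7 in edgeR and 7 to 8 in DESeq2. In edgeR the same omissions gave 0 to 10 other subunits higher, 0 to 20 assembly genes higher (0 without vehicle or rebamipide replicate 2, 9 without rebamipide replicate 3), and 0 to 2810 of all genes higher and 0 to 1971 lower, with 1012 and 382 without rebamipide replicate 3, 1507 and 379 without vehicle replicate 1. In DESeq2 they gave 0 to 1 other subunits lower, the 1 without vehicle replicate 1. Of all genes DESeq2 then called 2046 to 3657 higher (3416 without vehicle replicate 3, 3657 without rebamipide replicate 1) and 1419 to 4189 lower (2016 without vehicle replicate 1, 3043 without vehicle replicate 3, 4189, 2273 and 1865 without rebamipide replicates 1, 2 and 3). Of all genes, 2093 were higher and 968 lower in the edgeR comparison, but 2534 were lower in DESeq2, 1512 with at least 10 counts in every library and 1762 with the slow muscle covariate. Total counts alone gave 1258 higher and 3752 lower, so that 25.1% of the calls were higher in place of 68.4%, limma on log2(FPKM + 1) gave 1401 and 4809, and limma on log2(FPKM + 0.1) gave 1391 and 4777. DESeq2 put the share of higher calls at 51.8%. The slow muscle covariate made 1 isoform gene lower, Cox6a2 (-6.60, adjusted p = 0.0441). The sign of Cox6a2 turned with the fast muscle covariate (0.10), and over the omissions its log2 difference ran from -1.97 to 0.40 in edgeR and from -2.01 to 0.43 in DESeq2, above 0 without vehicle replicate 3 (0.30, DESeq2 0.26), rebamipide replicate 2 (0.11, 0.08) or rebamipide replicate 3 (0.40, 0.43). The causes were not tested. Cox7a2l lost its call in 9 alternatives (0.35 to 1.03, adjusted p = 0.0566 to 0.153, edgeR or limma), and the other 6 called genes lost theirs only in the 2 omissions named first. Cox4i2 passed in 1, DESeq2 without vehicle replicate 1 (1.07, adjusted p = 0.0227). All 5 isoform ratios kept their direction.

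Deviations from the group mean of same-numbered libraries correlated at -0.02, -0.04 and 0.00, and 0 libraries correlated best with their own number. These values, from 3 libraries a group, cannot exclude that a replicate number stands for a shared origin. With the replicate block, 7 isoform genes, 10 assembly genes and 1432 of all genes were higher and 855 lower. The lowest counts were those of Cox6a2 in rebamipide replicate 3, with 30, and of Cox4i2, with 84 to 143. With 3 libraries a group the permutation test cannot go below p = 0.1.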
